A study of Homo sapiens with 40 samples.

Results

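The 10 genes described here encode selenoproteins: GPX1, GPX4, TXNRD2, SELENOW, SELENOH, SELENOS, SELENOK, SELENOT, SELENOF and SEPHS2. They were taken by symbol from the 19962 genes of the count table, all 10 were found, and all 10 were among the 11428 genes tested. The data are 40 poly(A) RNA libraries of RKO, an established human colorectal carcinoma line, in 10 groups of 4. Every group carries a doxycycline-inducible Cas9, a GFP marker and a pair of guide RNAs with a BFP marker, and every library received 4-thiouridine (s4U) at 250 µM for 2 hours.

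The sgAAVS1 line has guides against AAVS1, a non-coding control locus, and was given DMSO or doxycycline (Dox, 250 ng/mL for 72 hours). The sgIGF2BP2 and sgIGF2BP3 lines have guides against IGF2BP2 or IGF2BP3, which encode RNA-binding proteins that attach to many mRNAs. Each of these lines had a DMSO group, a Dox group, a group with the non-targeting siRNA siControl and a group with an siRNA pool against its own target gene (siIGF2BP2 or siIGF2BP3, 75 nM for 48 hours). The guide lines were sorted pools of BFP-positive cells, and each library came from 1 culture well, so p-values measure the spread between wells. Whether the siRNA groups also received DMSO is not stated in the labels. The line and the siRNA pool cannot be told apart in a comparison of siIGF2BP2 with siIGF2BP3.

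Selenoproteins contain selenocysteine, an amino acid in which selenium takes the place of the sulfur of cysteine. It is inserted at a UGA codon, which otherwise ends translation, by a dedicated tRNA and a stem-loop (the SECIS element) in the 3′ untranslated region. Many selenoproteins are redox enzymes, and the mRNAs of some of them, GPX1 and SELENOW among them, are known to decline when selenium is scarce. In epithelial and tumour cells GPX4 is best known as the enzyme that reduces lipid hydroperoxides and restrains ferroptosis.

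The selenocysteine codon is what makes these 10 genes a family, so its surroundings are shown for each. The sequences are the coding strand, 5′ to 3′, of GENCODE 29 transcripts (GRCh38). The capitals mark the selenocysteine codon, written TGA in DNA letters, with up to 12 bases on each side, ending at the stop codon where that comes first.
GPX1: gtggcgtccctcTGAggcaccacggtc
GPX4: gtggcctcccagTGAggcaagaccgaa
TXNRD2: gtgacaggctgcTGAgggtaa
SELENOW: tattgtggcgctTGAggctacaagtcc
SELENOH: cattgcactagcTGAcgcgtctatggg
SELENOS: tcatctggcggaTGAggctaa
SELENOK: atggctggtggaTGAggaaggtaa
SELENOT: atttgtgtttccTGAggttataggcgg
SELENOF: gaagtttgtggaTGAaaattgggaagg
SEPHS2: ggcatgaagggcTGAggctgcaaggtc

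The codon lies near the end of the protein in TXNRD2 (codon 523 of 524), SELENOS (188 of 189) and SELENOK (92 of 94), and in the other 7 genes it lies further inside. SELENOW has it at codon 13 of 87, SEPHS2 at 60 of 448, GPX1 at 49 of 203 and SELENOT at 49 of 195. For SELENOH it is codon 44 of 122, for GPX4 codon 73 of 197, and for SELENOF codon 96 of 165. SEPHS2 has a single exon and also ends in TGA, so its annotated open reading frame holds this triplet both as selenocysteine and as stop. In the other 9 genes the last exon junction lies downstream of the codon, from 5 bases away in SELENOK to 470 in SELENOT.

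**Figure D1:**
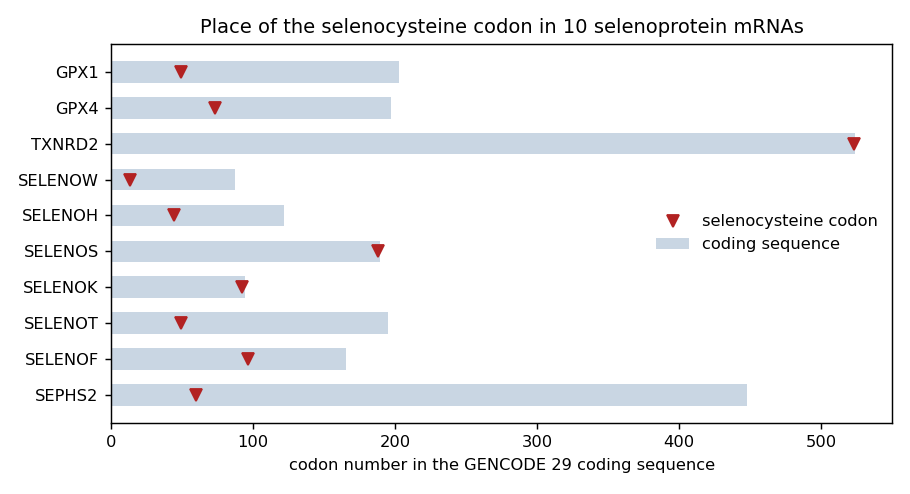
Position of the selenocysteine codon (red triangle) along the coding sequence (grey bar) of the 10 genes, counted in codons of the GENCODE 29 transcript. TXNRD2, SELENOS and SELENOK carry it within the last 3 codons, and SELENOW carries it at codon 13.

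The depth was 1.00e+07 to 2.48e+07 counts per library. Among the members, SELENOH had the lowest count in any library (144) and SELENOT the highest (7357). The guide and siRNA targets fell in their own lines: IGF2BP2 mRNA was at 39.7% of DMSO after Dox and 27.9% of siControl after siIGF2BP2, and IGF2BP3 mRNA was at 31.2% after Dox and 14.6% after siIGF2BP3. IGF2BP3 mRNA also fell with Dox in the sgIGF2BP2 line, to 84.5% of DMSO (adjusted p = 2.93e-06). IGF2BP2 mRNA was higher in siControl than in DMSO, at 127% in sgIGF2BP2 and 122% in sgIGF2BP3. The RKO identity was checked by markers: EPCAM, KRT8, KRT18, CDX2, VIM and ZEB1 were detected in every library, and CDH1, KRT19, KRT20, VIL1, LGR5 and CDH2 were at or near 0. Of the markers of other cells, PTPRC, CD3E, PECAM1 and ALB had at most 3 counts, and COL1A1 had up to 11 (mean 0.33 CPM over the 40 libraries). The library sgIGF2BP2 Dox replicate 2 stood apart from its group. The chi-square per gene reached 16.3 between it and its fellow replicates, and at most 6.40 in pairs without it.

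Levels among the genes were compared as CPM (counts scaled to a fixed library size) per kilobase of exon, as means over the 40 libraries. GPX1, the cytosolic glutathione peroxidase, was highest at 147 CPM per kb. GPX4 followed at 103, SELENOW (a small thioredoxin-fold protein) at 76.5 and SELENOT (a thioredoxin-fold protein of the endoplasmic reticulum) at 73.9. SELENOF, a partner of the glycoprotein folding sensor UGGT1, stood at 53.8 CPM per kb, and SEPHS2, which makes the selenium donor for selenocysteine synthesis, at 52.9. SELENOK and SELENOS, membrane proteins of the endoplasmic reticulum tied to protein degradation, were at 23.6 and 19.9. SELENOH, a nuclear thioredoxin-fold protein, was at 9.53, and TXNRD2, the mitochondrial thioredoxin reductase, was lowest at 4.27. The order depends on the length used, which merges the exons of all transcripts in GENCODE's basic set and is 5472 bases for TXNRD2. Without division by length SELENOH was lowest at 16.2 CPM, and TXNRD2 was at 23.4. All values from here on are CPM not divided by length, for 1 gene across libraries.

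Across the 10 group means, SELENOH varied most, with a range of 0.64 on the log2 scale, then SELENOT (0.58), GPX4 (0.56) and TXNRD2 (0.49). SELENOF (0.21), SELENOS (0.23) and SEPHS2 (0.27) varied least. The siIGF2BP2 group had the highest mean of all 10 groups for GPX1, GPX4, TXNRD2, SELENOH and SELENOS, and the lowest for SELENOK, SELENOT and SEPHS2. For GPX4, TXNRD2 and SELENOH its 4 libraries lay above those of the next group in order, and for SELENOT they lay below it. Most other neighbours in the order of group means overlapped: of the 9 neighbouring pairs, 2 did not overlap for SELENOT, 1 each for GPX1, GPX4, TXNRD2, SELENOH, SELENOK and SEPHS2, and none for SELENOW, SELENOS and SELENOF. In DMSO, the sgIGF2BP2 and sgIGF2BP3 lines each overlapped the sgAAVS1 line for every member, and the siControl groups of the 2 lines overlapped each other for every member. Overlap between groups was not counted over all genes, so whether these counts are usual for a gene is not known.

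**Figure D2:**
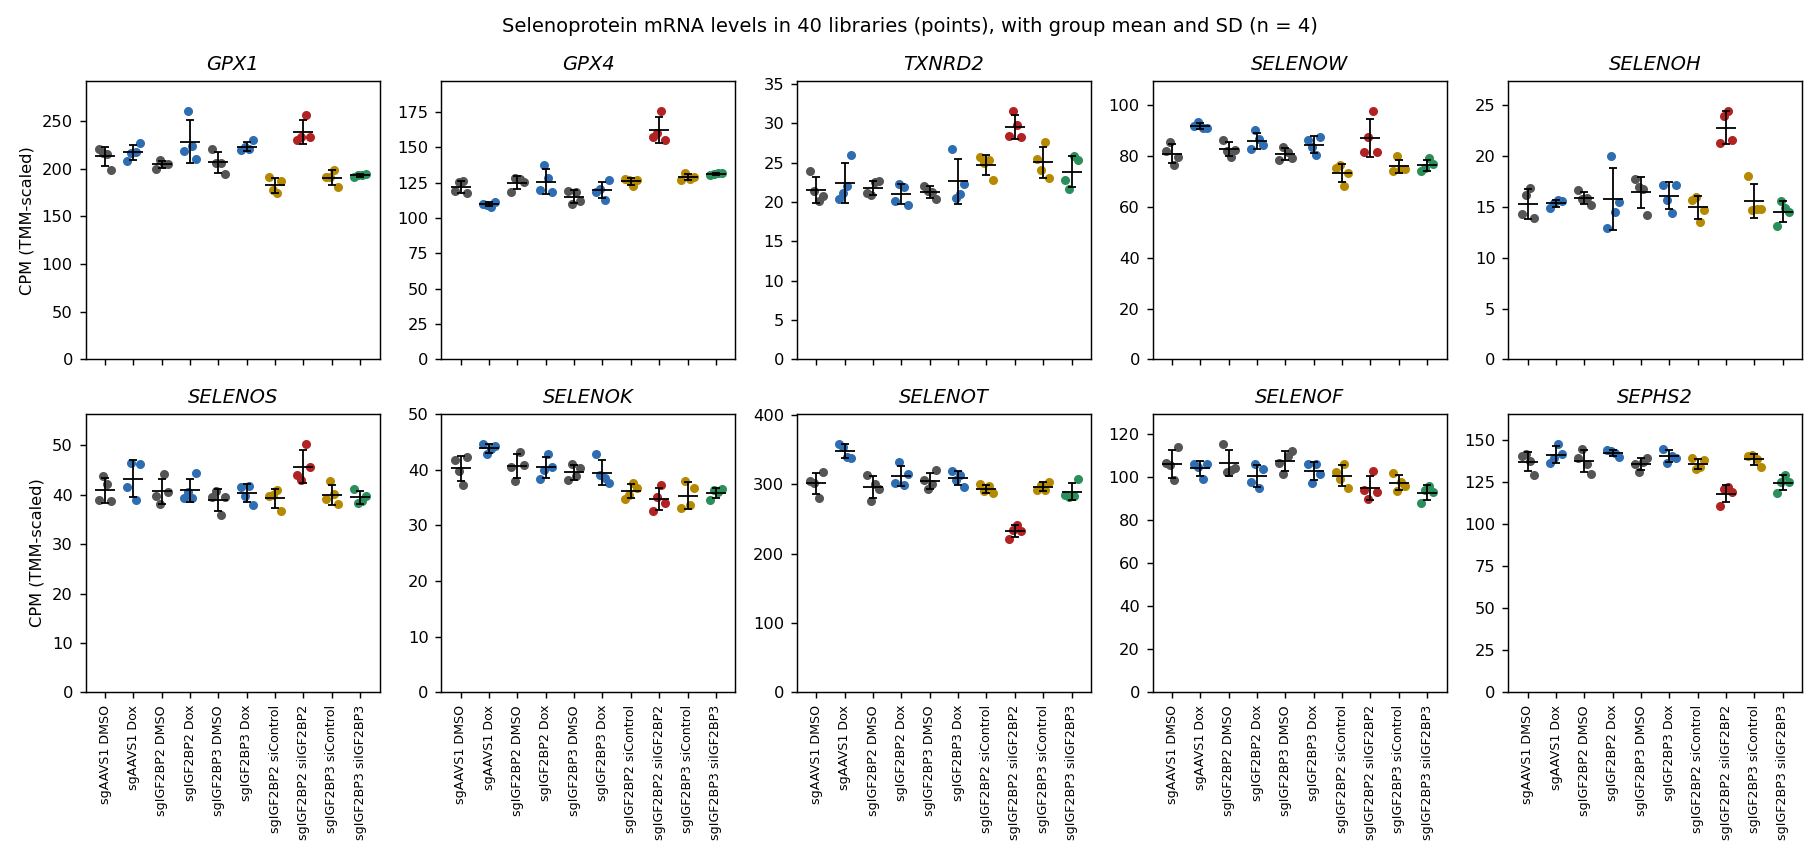
TMM-scaled CPM of each gene (vertical axis from 0, scaled per gene) in the 40 libraries (points) by line and treatment, with the mean and SD of each group (n = 4). The siIGF2BP2 group (red) stands above the others for GPX4, TXNRD2 and SELENOH and below them for SELENOT.

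The siIGF2BP2 comparison asked how depletion of IGF2BP2 by siRNA changed these mRNAs against siControl in the sgIGF2BP2 line. Of the 10 members, 6 rose and 2 fell by edgeR's quasi-likelihood test at an adjusted p under 0.05. SELENOH rose most, to 152% of siControl, GPX1 to 131% and GPX4 to 129%. TXNRD2, SELENOW and SELENOS rose to between 116% and 119%, while SELENOT fell to 79.2% and SEPHS2 to 86.9%. SELENOK and SELENOF did not pass the test.

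Over all genes tested in this comparison 36.8% were called, 18.4% higher and 18.4% lower, against 8 of the 10 members. The members' median log2 fold change was 0.23, against 0.011 for all genes. For the 8 other selenoprotein genes tested, described further below, the median was -0.014. The 4 libraries of the treated group did not overlap the 4 of siControl for any of the 8 called members. How many of all called genes share this trait was not counted, so it is no support beyond the calls. All 8 calls held in each of the 15 alternative fits made for them.

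The peroxidases use glutathione to reduce peroxides, GPX1 mainly soluble ones and GPX4 those of membrane lipids. GPX1 measured 191, 178, 174 and 187 CPM in the siControl libraries and 230, 233, 256 and 233 CPM after siIGF2BP2. Its log2 fold change was 0.38 (SE 0.043, adjusted p = 2.02e-11, edgeR). The lowest treated library was well above the highest control, and replicate 3 of siIGF2BP2 was the highest of all. GPX4 measured 128, 127, 123 and 127 CPM in siControl and 157, 160, 176 and 155 CPM after siIGF2BP2, a log2 fold change of 0.36 (SE 0.040, adjusted p = 1.17e-11). Again every treated library was higher than every control, with replicate 3 at the top.

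TXNRD2 keeps mitochondrial thioredoxin reduced. It measured 25.8, 24.9, 25.3 and 22.8 CPM in siControl and 28.3, 31.6, 29.7 and 28.3 CPM after siIGF2BP2, a log2 fold change of 0.25 (SE 0.070, adjusted p = 0.00333). The groups did not overlap, although the gap between them was small. By contrast TXNRD1, the cytosolic thioredoxin reductase, which is also a selenoprotein, fell in this comparison from 315 ± 12.4 to 97.8 ± 3.70 CPM (SD, n = 4), a log2 fold change of -1.69 (adjusted p = 4.45e-49). With Dox in the same line TXNRD1 had a log2 fold change of -0.083 and was not called (adjusted p = 0.0541, edgeR).

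Of the members described above as thioredoxin-fold proteins, SELENOH and SELENOW rose and SELENOT fell. SELENOH measured 15.7, 15.9, 13.5 and 14.7 CPM in siControl and 21.2, 23.9, 24.4 and 21.5 CPM after siIGF2BP2, a log2 fold change of 0.60 (SE 0.086, adjusted p = 3.52e-08). SELENOW measured 75.4, 76.3, 68.2 and 73.2 CPM in siControl and 81.7, 87.5, 97.7 and 81.5 CPM after siIGF2BP2, a log2 fold change of 0.25 (SE 0.045, adjusted p = 7.99e-06). Both pairs of groups were separate, with replicate 3 the highest treated library for each gene. SELENOT measured 300, 290, 297 and 288 CPM in siControl and 222, 235, 242 and 233 CPM after siIGF2BP2, a log2 fold change of -0.34 (SE 0.038, adjusted p = 3.37e-11). Here all 4 treated libraries lay below all 4 controls.

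Among the other members of the endoplasmic reticulum, SELENOS rose. It binds the ATPase VCP in the removal of misfolded proteins, and it measured 39.7, 39.9, 41.1 and 36.6 CPM in siControl and 44.0, 43.0, 50.3 and 45.6 CPM after siIGF2BP2. Its log2 fold change was 0.22 (SE 0.058, adjusted p = 0.00183), and the groups did not overlap. SELENOK, which binds the palmitoyltransferase ZDHHC6, had a log2 fold change of -0.054 (95% interval -0.16 to 0.05, adjusted p = 0.466), and its groups overlapped. SELENOF had -0.086 (95% interval -0.17 to 0.00, adjusted p = 0.134). The groups of SELENOF overlapped too, and it was called lower without siIGF2BP2 replicate 3 (log2 fold change -0.13, adjusted p = 0.0288).

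SEPHS2 is at once a selenoprotein and an enzyme that all selenoproteins depend on. It measured 139, 133, 134 and 138 CPM in siControl and 111, 121, 122 and 119 CPM after siIGF2BP2, a log2 fold change of -0.20 (SE 0.037, adjusted p = 1.14e-05). The highest treated library was below the lowest control.

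**Figure D3:**
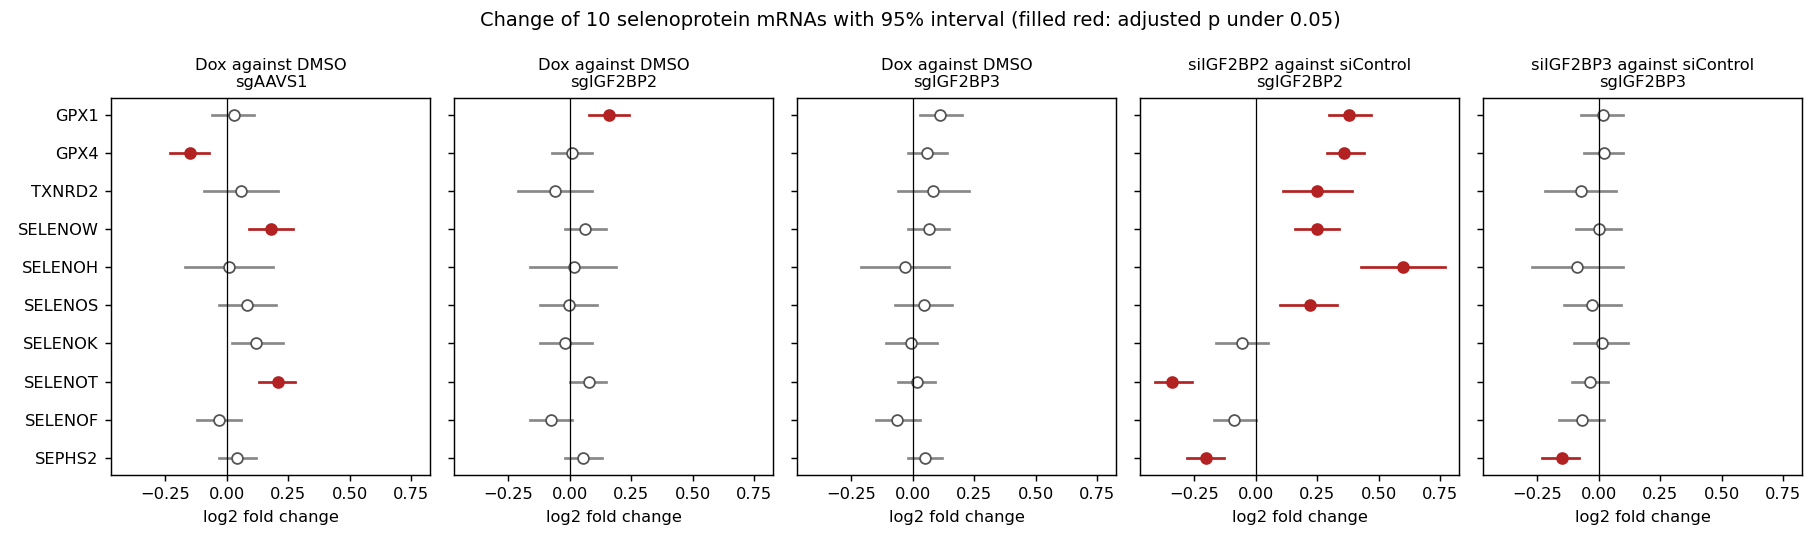
Log2 fold change (horizontal axis) of each gene with its 95% interval in the 5 comparisons of treatment with control. Filled red points have an adjusted p under 0.05 in edgeR's quasi-likelihood test, and 8 of 10 genes are filled in the siIGF2BP2 panel against 0 to 3 in the other panels. Over all genes tested, 36.8% were called in the siIGF2BP2 comparison and between 2.34% and 20.4% in the others.

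The 10 genes differ in GC content, taken from the longest protein-coding transcript of each gene, from 35.3% in SELENOT to 65.2% in GPX4. The 5 members above 55% GC (GPX4, GPX1, TXNRD2, SELENOW and SELENOH) were all called higher after siIGF2BP2. The 3 members under 43% were called lower (SELENOT) or not called (SELENOF and SELENOK). SELENOS at 49.1% was called higher and SEPHS2 at 51.3% lower. Across the 10 members GC content and log2 fold change had a Pearson r of 0.77 and a Spearman rho of 0.79, as a description of genes measured in the same libraries. Over 11401 genes with a GC value the same r was 0.17.

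With an offset for GC content and exon length fitted per library, an alternative added after seeing the data, the log2 fold change of GPX1 was 0.27, that of GPX4 0.24, that of SELENOW 0.16 and that of SELENOH 0.54. SELENOT was at -0.30 and SEPHS2 at -0.24. With this offset 9 members were called, SELENOF in addition (adjusted p = 0.0477), and the r across members was 0.70.

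**Figure D4:**
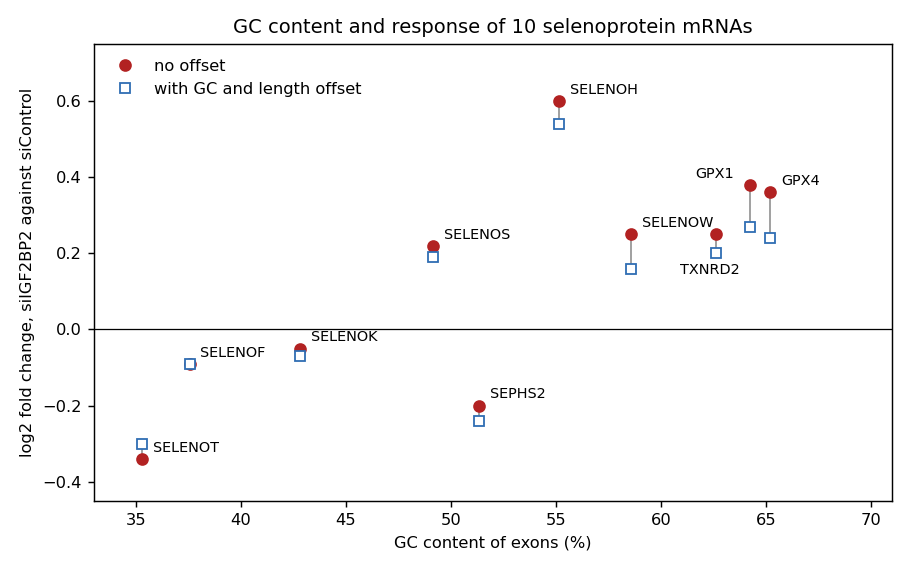
GC content of the longest protein-coding transcript (horizontal axis, percent) and log2 fold change after siIGF2BP2 (vertical axis) of the 10 genes, without (red circles) and with (blue squares) an offset for GC content and length. The offset brings GPX1 from 0.38 to 0.27 and GPX4 from 0.36 to 0.24, and each gene stays on its side of 0.

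After siIGF2BP3 in the sgIGF2BP3 line, 1 of the 10 members was called, SEPHS2, where 2.34% of all genes were called. SEPHS2 measured 141, 141, 139 and 134 CPM in siControl and 119, 125, 129 and 125 CPM after siIGF2BP3, a log2 fold change of -0.15 (SE 0.038, adjusted p = 0.00993, edgeR). The groups did not overlap. The call was lost without siControl replicate 2 (adjusted p = 0.0511) and without siIGF2BP3 replicate 1 (adjusted p = 0.0874).

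The other 9 members did not pass the test after siIGF2BP3. The peroxidases stayed within narrow limits, with 95% intervals of -0.07 to 0.10 for GPX1 and -0.06 to 0.10 for GPX4 on the log2 scale. SELENOH, the member with the fewest counts, had the widest interval, -0.27 to 0.10, around a log2 fold change of -0.087. SELENOT measured 291, 299, 292 and 304 CPM in siControl and 285, 281, 284 and 308 CPM after siIGF2BP3, and the groups overlapped.

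The difference between the siRNA effects, siIGF2BP3 minus siIGF2BP2, was tested as an interaction. It was called for 7 of the 10 members, against 18.7% of all genes. It was -0.69 for SELENOH (SE 0.13, adjusted p = 2.99e-05), -0.37 for GPX1 (adjusted p = 3.39e-06), -0.34 for GPX4 (adjusted p = 4.15e-06), -0.32 for TXNRD2 (adjusted p = 0.0177), -0.25 for SELENOW (adjusted p = 0.00370), -0.24 for SELENOS (adjusted p = 0.0295) and 0.30 for SELENOT (adjusted p = 1.53e-05). So 6 members rose and SELENOT fell with siIGF2BP2 in its line, and none of these 7 was called with siIGF2BP3 in its own. With siIGF2BP3 their log2 fold changes lay between -0.087 (SELENOH) and 0.023 (GPX4). For SEPHS2, which fell with both pools, the difference was 0.048 (95% interval -0.06 to 0.15, adjusted p = 0.587). The call of TXNRD2 was lost without sgIGF2BP3 siControl replicate 3 (adjusted p = 0.0652) or siIGF2BP3 replicate 2 (adjusted p = 0.0641). That of SELENOS was lost without any of 5 single libraries: sgIGF2BP2 siControl replicate 4, siIGF2BP2 replicate 3, sgIGF2BP3 siControl replicate 2, and siIGF2BP3 replicates 2 and 3 (adjusted p from 0.0511 to 0.104).

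Dox induces Cas9 and so the knockout. In the sgAAVS1 control line, where the guides cut a non-coding locus, 3 of the 10 members were called with Dox, against 15.9% of all genes. SELENOT rose from 305, 301, 281 and 318 CPM in DMSO to 359, 354, 339 and 338 CPM in Dox, a log2 fold change of 0.21 (SE 0.037, adjusted p = 2.94e-05). With the GC and length offset it was 0.12. SELENOW rose from 81.8, 85.3, 76.6 and 79.7 CPM to 91.8, 93.4, 91.0 and 90.9 CPM, a log2 fold change of 0.18 (SE 0.045, adjusted p = 0.00245). GPX4 fell from 119, 125, 126 and 118 CPM to 110, 109, 108 and 112 CPM, a log2 fold change of -0.15 (SE 0.041, adjusted p = 0.00615). None of these 3 pairs of groups overlapped, and neither did those of SELENOK, whose log2 fold change of 0.12 did not pass the test (adjusted p = 0.104).

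In the sgIGF2BP2 line, 1 of the 10 members was called with Dox, against 20.4% of all genes. GPX1 measured 200, 209, 205 and 205 CPM in DMSO and 219, 260, 224 and 210 CPM in Dox, a log2 fold change of 0.16 (SE 0.043, adjusted p = 0.00345). The groups did not overlap, but the high value of 260 belongs to Dox replicate 2, the library that stood apart. Without that library the log2 fold change was 0.087 (adjusted p = 0.132), and with the GC and length offset it was 0.079 (adjusted p = 0.0598). That library was also the highest of its group for GPX4 (137 CPM, the others 118 to 128) and SELENOH (20.0 CPM, the others 12.9 to 15.5). Neither gene was called with Dox in this line.

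Side by side, the knockout and the siRNA against IGF2BP2 gave log2 fold changes of 0.16 and 0.38 for GPX1, the member called higher in both (with Dox, not without replicate 2), 0.016 and 0.60 for SELENOH, 0.011 and 0.36 for GPX4, 0.077 and -0.34 for SELENOT, and 0.053 and -0.20 for SEPHS2. For the remaining 5 members they were -0.059 and 0.25 (TXNRD2), 0.063 and 0.25 (SELENOW), -0.0020 and 0.22 (SELENOS), -0.018 and -0.054 (SELENOK), and -0.074 and -0.086 (SELENOF). The difference between the effects of Dox and of siRNA was not tested, and the treatments also differ in time and in what their control received.

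In the sgIGF2BP3 line, none of the 10 members was called with Dox by edgeR, where 2.64% of all genes were called. DESeq2 called 0 members too, and 1 had an unadjusted p under 0.05, GPX1 (log2 fold change 0.11, adjusted p = 0.142). GPX1 measured 220, 206, 206 and 194 CPM in DMSO and 219, 223, 220 and 230 CPM in Dox, so the groups overlapped. It was called when only the libraries of these 2 groups entered the fit (adjusted p = 0.0470).

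The Dox effects were also set against that of sgAAVS1, with sgAAVS1 as the shared control. For sgIGF2BP2 minus sgAAVS1, edgeR and DESeq2 each called 0 of the 10 members, 3 had an unadjusted p under 0.05, and 6.97% of all genes were called. For sgIGF2BP3 minus sgAAVS1, 2 members were called, against 7.78% of all genes: GPX4 with a difference of 0.21 (SE 0.058, adjusted p = 0.0151) and SELENOT with -0.19 (SE 0.053, adjusted p = 0.0158). These differences hold the fall of GPX4 and the rise of SELENOT in sgAAVS1, beside log2 fold changes of 0.058 and 0.017 in sgIGF2BP3. With the GC and length offset the difference for GPX4 was 0.12 (adjusted p = 0.120) and that for SELENOT -0.021 (adjusted p = 0.873), so neither was called. SELENOW was called with that offset, at -0.18 (adjusted p = 0.0459) for sgIGF2BP3 minus sgAAVS1 and at -0.17 (adjusted p = 0.0319) for sgIGF2BP2 minus sgAAVS1, against -0.12 in both without it. The GPX4 call was also lost without sgIGF2BP3 Dox replicate 4 (adjusted p = 0.0639). The SELENOT call was also lost without sgAAVS1 DMSO replicate 3, sgIGF2BP3 DMSO replicate 4 or sgIGF2BP3 Dox replicate 4 (adjusted p from 0.0608 to 0.0667).

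The controls themselves differed: siControl libraries were compared with DMSO libraries of the same line, whose labels name no siRNA. In sgIGF2BP2, 3 of the 10 members were called, all lower with siControl, against 18.4% of all genes. GPX1 had a log2 fold change of -0.16 (adjusted p = 0.00333), SELENOW -0.17 (adjusted p = 0.00430) and SELENOK -0.18 (adjusted p = 0.0110). The SELENOK call was lost without DMSO replicate 3 (adjusted p = 0.104) or siControl replicate 1 (adjusted p = 0.0538).

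In sgIGF2BP3, 5 of the 10 members were called between siControl and DMSO, against 19.4% of all genes. GPX4 (0.17, adjusted p = 0.00170) and TXNRD2 (0.23, adjusted p = 0.0200) were higher with siControl, and GPX1 (-0.12, adjusted p = 0.0486), SELENOK (-0.15, adjusted p = 0.0356) and SELENOF (-0.14, adjusted p = 0.0190) were lower. Of these calls GPX4 alone held in all 15 alternatives. With the GC and length offset 2 members were called, with log2 fold changes of 0.15 for TXNRD2, -0.08 for SELENOK and -0.04 for SELENOF, none of the 3 called. In the siIGF2BP2 comparison above, GPX1 in siControl (182 ± 7.98 CPM, SD, n = 4) was thus lower than in DMSO (205 ± 3.73), and its 4 libraries after siIGF2BP2 (238 ± 12.2) lay above those of both. SELENOW was likewise lower in siControl (73.3 ± 3.63 CPM) than in DMSO (82.6 ± 2.73), and its libraries after siIGF2BP2 (81.5 to 97.7) overlapped those of DMSO (79.7 to 86.3).

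Other genes of selenium biology were counted from 5 lists. Of 15 other selenoprotein genes 8 were tested, and GPX2, GPX6, DIO1, DIO2, DIO3, SELENOP and SELENOV had at most 4 counts in any library. After siIGF2BP2, 1 of the 8 rose, SELENON, which senses calcium in the endoplasmic reticulum (255 ± 3.33 to 337 ± 11.3 CPM, log2 fold change 0.40, adjusted p = 6.87e-15). Another 3 fell: TXNRD1, MSRB1, a methionine sulfoxide reductase (-0.50, adjusted p = 1.61e-09), and SELENOI, an enzyme of phospholipid synthesis (-0.32, adjusted p = 2.68e-06). That is 4 of 8 called, against 36.8% of all genes. After siIGF2BP3 edgeR and DESeq2 called 0 of the 8, with 2 at an unadjusted p under 0.05, where 2.34% of all genes were called. With Dox in sgAAVS1, GPX3 (0.45) and SELENOI (0.17) rose and TXNRD1 fell (-0.11), and in sgIGF2BP2 SELENOM rose (0.26). The genes called after siIGF2BP2 were not called by edgeR with Dox in sgIGF2BP2. There TXNRD1 was at -0.083, SELENON at -0.024, MSRB1 at 0.054 and SELENOI at 0.065. Over all genes, 15.9% were called with Dox in sgAAVS1 and 20.4% in sgIGF2BP2. The highest of the 4 Dox values of SELENOM, 184 CPM, is that of Dox replicate 2, the library that stood apart, and without it the log2 fold change was 0.18 (adjusted p = 0.00185). In sgIGF2BP3 edgeR and DESeq2 called 0 with Dox, with 3 at an unadjusted p under 0.05, where 2.64% of all genes were called.

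Of 14 listed genes of selenocysteine synthesis and insertion 13 were tested. After siIGF2BP2, TRNAU1AP, which binds the selenocysteine tRNA, rose (0.30, adjusted p = 0.000844), NCL, a nucleolar protein that binds SECIS elements, fell (-0.23, adjusted p = 3.88e-08), and 11 did not pass the test, where 36.8% of all genes were called. SECISBP2, the main SECIS-binding protein, had a log2 fold change of 0.081 (adjusted p = 0.166), and EEFSEC, the elongation factor for selenocysteine, 0.033 (SE 0.19). SECISBP2L, a relative of SECISBP2, rose with Dox in sgAAVS1 (0.39) and in sgIGF2BP2 (0.25). EIF4A3 fell in sgAAVS1 (-0.23), and NCL fell in sgIGF2BP2 (-0.088, adjusted p = 0.0415). After siIGF2BP3 edgeR and DESeq2 called 0 of the 13, with 2 at an unadjusted p under 0.05. With Dox in sgIGF2BP3 they called 0, with 0 at an unadjusted p under 0.05. Over all genes, 2.34% were called after siIGF2BP3 and 2.64% with Dox in sgIGF2BP3.

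Of 22 tested thioredoxin and glutathione genes without selenocysteine, 5 rose and 7 fell after siIGF2BP2, where 18.4% of all genes were called in each direction. The largest called changes were falls of PRDX6 (402 ± 8.39 to 298 ± 18.1 CPM, -0.43), the peroxiredoxin that also acts on lipid peroxides, of PRDX3 (-0.36), the mitochondrial one, and of GPX8 (-0.33), a glutathione peroxidase without selenocysteine. With Dox in sgAAVS1, where 15.9% of all genes were called, 3 of the 22 rose, MSRB2 (0.33), GCLC (0.20) and GPX8 (0.17), and 1 fell, PRDX2 (-0.14, adjusted p = 0.00524). With Dox in sgIGF2BP2, where 20.4% of all genes were called, 3 rose, MSRB2 (0.27), TXNIP (0.24) and GCLC (0.16), and 3 fell, PRDX3 (-0.12), PRDX6 (-0.12) and GSR (-0.10). In sgIGF2BP3 GLRX fell with Dox (-0.13), where 2.64% of all genes were called. After siIGF2BP3, where 2.34% of all genes were called, edgeR and DESeq2 called 0 of the 22, with 3 at an unadjusted p under 0.05.

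Of 12 genes of lipid peroxidation and ferroptosis, the setting in which GPX4 acts, 3 rose and 5 fell after siIGF2BP2, against 36.8% of all genes called in either direction. TFRC, the transferrin receptor, fell from 194 ± 3.35 to 132 ± 5.99 CPM (-0.55, adjusted p = 1.72e-22), DHODH fell (-0.39), and LPCAT3, which loads polyunsaturated fatty acids into phospholipids, rose (0.20). ACSL4 (0.16) and NCOA4 (0.10) rose and FTH1 fell (-0.13) with Dox in sgAAVS1, and the other 9 were not called, against 15.9% of all genes called. With Dox in sgIGF2BP2, where 20.4% of all genes were called, 3 rose and 3 fell. FTL (0.15) and SLC3A2 (0.13) were among the rises and LPCAT3 (-0.15) among the falls. In the sgIGF2BP3 line edgeR and DESeq2 called 0 of the 12 with Dox, with 2 at an unadjusted p under 0.05. With siIGF2BP3 they called 0, with 1 at an unadjusted p under 0.05. Over all genes, 2.64% were called with Dox in this line and 2.34% with siIGF2BP3.

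The last list holds 11 partners of the selenoproteins of the endoplasmic reticulum, all tested. After siIGF2BP2, in which SELENOS rose and SELENOT fell, edgeR and DESeq2 called 0 of them, with 1 at an unadjusted p under 0.05, where 36.8% of all genes were called. VCP fell after siIGF2BP3 (-0.14, adjusted p = 0.00162), where 2.34% of all genes were called. With Dox in sgAAVS1, UBXN8 (0.45), SEL1L (0.21) and DERL1 (0.17) rose, against 15.9% of all genes called.

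Of the 36 calls of list genes named by rule in these comparisons, 23 held in all alternatives, among them all those with siRNA. The 13 that were lost in at least 1 alternative are SELENOI, MSRB2, GCLC, GPX8, ACSL4, FTH1 and NCOA4 with Dox in sgAAVS1, NCL, MSRB2, GCLC, LPCAT3 and SLC3A2 in sgIGF2BP2, and GLRX in sgIGF2BP3. Without sgIGF2BP2 Dox replicate 2, MSRB2 was at 0.21 (adjusted p = 0.159), SLC3A2 at 0.08 (adjusted p = 0.190) and LPCAT3 at -0.14 (adjusted p = 0.0508).

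**Figure D5:**
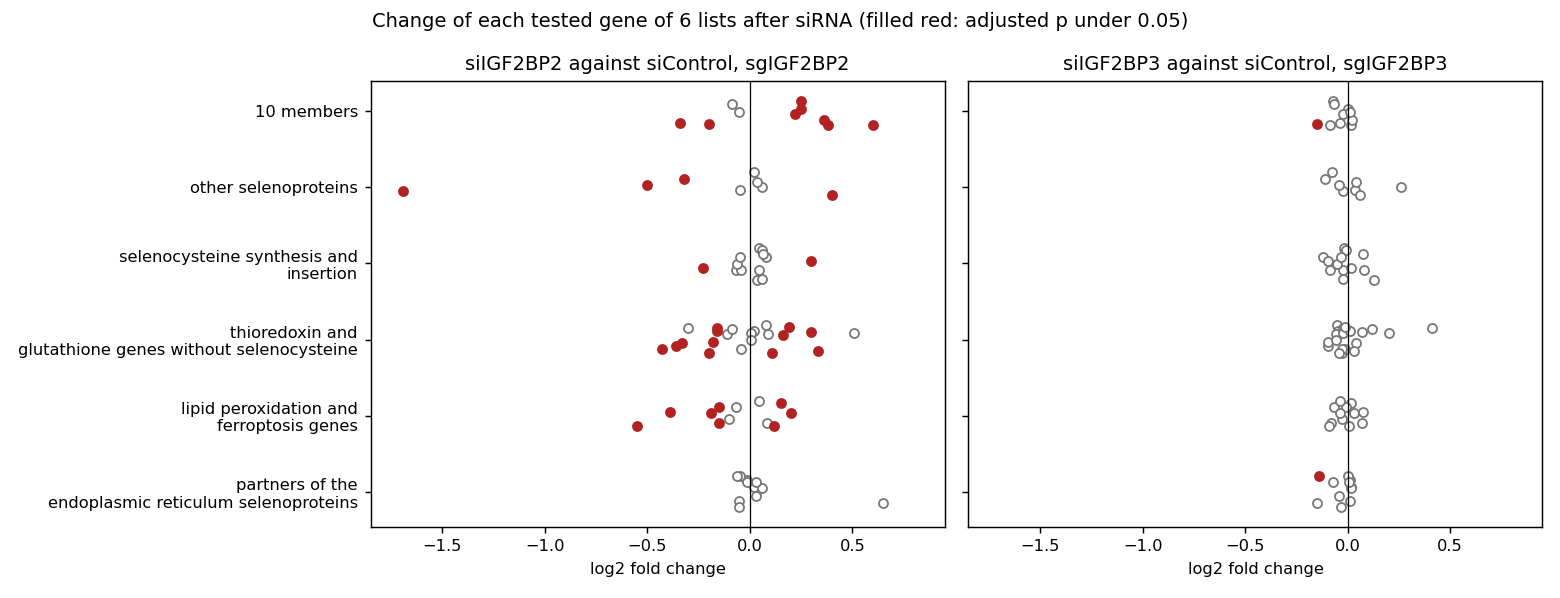
Log2 fold change (horizontal axis) of each tested gene of the 10 members and the 5 lists (rows, points spread vertically for legibility) after siIGF2BP2 and after siIGF2BP3. Filled red points have an adjusted p under 0.05, and the point at -1.69 is TXNRD1.

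Over the 10 group means, the members did not vary as 1 block. The median Pearson r of the 45 pairs of members was 0.10, and 26 pairs were above 0. SELENOW and GPX1 had an r of 0.87, SEPHS2 and SELENOT 0.86, and TXNRD2 and GPX4 0.84, while SELENOT and GPX4 had -0.96 and SEPHS2 and GPX4 -0.82. These points share libraries and the siIGF2BP2 group, and they are given as a description. Among 7772 genes of sufficient level, those most like SELENOH over the 10 group means were NKTR (r 0.971) and ZNF292 (0.957). For SELENOT they were MCFD2 (0.978) and ARFGAP3 (0.971), and for GPX4 REEP4 (0.983) and RNF130 (0.979).

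Some members share exon sequence with other genes, and the sources used here do not say if strand was used in counting. SELENOT shares 61 exon bases with SERP1 on the opposite strand, and SERP1 had a log2 fold change of -0.082 after siIGF2BP2 (adjusted p = 0.0396) where SELENOT had -0.34. SELENOH overlaps AP001931.1 on its own strand by 207 bases and BTBD18 on the opposite strand by 41, which had at most 4 and 1 counts. GPX1 and SELENOT each have 2 pseudogenes named after them in GENCODE, SELENOK 3, SELENOW and SEPHS2 1 each, none of them a row of the count table, so reads shared with them make these values uncertain.

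In GRCh38 the genes lie at chr3:49357171-49358600 (GPX1, minus strand), chr19:1103926-1106791 (GPX4, plus), chr22:19875517-19941992 (TXNRD2, minus), chr19:47778572-47784686 (SELENOW, plus) and chr11:57741250-57743554 (SELENOH, plus). The others lie at chr15:101270817-101277500 (SELENOS, minus), chr3:53884410-53891988 (SELENOK, minus), chr3:150602875-150630445 (SELENOT, plus), chr1:86862445-86914424 (SELENOF, minus) and chr16:30443631-30446181 (SEPHS2, minus). The selenocysteine codon is in exon 1 of 2 in GPX1, exon 3 of 7 in GPX4, exon 17 of 18 in TXNRD2 and exon 2 of 6 in SELENOW. It is in exon 2 of 3 in SELENOH, exon 6 of 7 in SELENOS, exon 4 of 5 in SELENOK, exon 2 of 6 in SELENOT and exon 3 of 5 in SELENOF.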

How the data were processed

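The authors deposited whole-number counts of reads per gene, not normalized, in 1 table with 40 columns. Per the submitters' processing notes, the tools include bcl2fastq 2.20.0.422 and STAR 2.7.5c and the build is hg38. The counting tool, its annotation and its use of strand are not given in the sources used here. The counts cover new and older RNA of a gene together. Gene names, exons, GC content and coordinates come from GENCODE 29 (GRCh38).

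Genes were kept with filterByExpr by group (11428 of 19962) and scaled by TMM (trimmed means of log ratios). All 40 libraries entered 1 fit with a coefficient per group in edgeR 4.0.16 (R 4.3.3), tested by quasi-likelihood with Benjamini-Hochberg adjustment over all tested genes. A gene is called at an adjusted p under 0.05. The common biological coefficient of variation was 3.79%. An SE is the log2 fold change divided by the square root of F. The fit was run on counts simulated from its own means and dispersions, with 200 genes changed in the siIGF2BP2 group. The outcome is not given here, and no conclusion is drawn from it. No library was counted as a duplicate: the chi-square per gene between replicates was at least 1.49 (median 2.27 over 60 pairs), above the value that sampling noise alone gives.

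The members and lists were chosen with earlier results of these data known. Named list genes are, per list and treatment comparison, up to 3 called genes with the greatest change, beside the genes most like the 3 members with the widest range. SELENOI after siIGF2BP2, SECISBP2, EEFSEC, and PRDX2, PRDX3, PRDX6 and GSR with Dox were named after their values were seen. So were TXNRD1, SELENON, MSRB1 and SELENOI with Dox in sgIGF2BP2. Alternatives were RLE factors, DESeq2 1.42.0, other filters, fewer groups, a replicate block, leaving out each library, and an added GC and length offset.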

Additional observations from a re-analysis of the deposited data

Results flagged for a closer look

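In 4 of 100 sets of 4 libraries (10 genes in 10 groups), 1 library lay far from the other 3 by Dixon's criterion, which chance gives in about 1 of 20 sets. GPX1 in siIGF2BP2 replicate 3 was at 256 CPM, the others at 230 to 233. SELENOH in sgIGF2BP3 siControl replicate 1 was at 18.0 CPM, the others at 14.6 to 14.8. SELENOT in siIGF2BP3 replicate 4 was at 308 CPM, the others at 281 to 285. SELENOF in sgIGF2BP2 DMSO replicate 1 was at 115 CPM, the others at 103 to 104.

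A further 9 results are differences between effects of the same contrast that passed edgeR's test of the difference. The siRNA effect (siIGF2BP3 minus siIGF2BP2) differed for SELENOH (-0.69), GPX1 (-0.37), GPX4 (-0.34), TXNRD2 (-0.32), SELENOW (-0.25), SELENOS (-0.24) and SELENOT (0.30). The Dox effect (sgIGF2BP3 minus sgAAVS1) differed for GPX4 (0.21) and SELENOT (-0.19).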

How the results depend on the processing

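Of 100 results (10 members in 10 comparisons), 30 were called, and 19 of these kept their call in every alternative tried. Of the 70 others, 8 gained a call in some alternative, and no called value changed sign. The siIGF2BP2 comparison kept its 8 calls throughout. With the GC and length offset, the members called numbered 1 (SELENOW) instead of 0 for the Dox effect of sgIGF2BP2 minus sgAAVS1, 1 (SELENOW) instead of 2 (GPX4 and SELENOT) for sgIGF2BP3 minus sgAAVS1, and 2 instead of 5 for siControl against DMSO in sgIGF2BP3. With only the groups compared in the fit, 1 instead of 0 members were called for Dox in sgIGF2BP3. The cause was not tested.

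With 1 library left out at a time, the members called ranged from 3 to 3 for Dox in sgAAVS1, 0 to 1 in sgIGF2BP2 and 0 to 0 in sgIGF2BP3, from 8 to 9 for siIGF2BP2 and 0 to 1 for siIGF2BP3. They ranged from 0 to 2 for both differences of Dox effects, from 5 to 7 for the difference of siRNA effects, and from 2 to 4 for siControl against DMSO in each line. Over all genes, the calls for Dox in sgIGF2BP3 went from 302 to 477 with only the groups compared and to between 108 and 172 without DMSO replicate 3 or 4 or Dox replicate 2 or 4. Those for siIGF2BP3 went from 267 to 465 with only the groups compared and 507 with the offset. Those for sgIGF2BP3 minus sgAAVS1 went from 889 to 417 with the offset, 540 and 1415 without sgAAVS1 DMSO replicate 2 and 4, and 428 without sgIGF2BP3 Dox replicate 4.

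Deviations of samples with the same replicate number had r from -0.09 to 0.09, and the numbers were not taken as pairs. In siControl against DMSO, same-number r was 0.04 to 0.09 in sgIGF2BP2 and 0.01 to 0.08 in sgIGF2BP3. Samples with other numbers reached at most 0.02 in both lines. Each of the 4 libraries correlated best with its own number in sgIGF2BP2, and 2 of the 4 did so in sgIGF2BP3. With the replicate number as a block, the members called stayed at 8 for siIGF2BP2 and 1 for siIGF2BP3, with 4293 and 291 of all genes called. For siControl against DMSO they stayed at 3 in sgIGF2BP2 and 5 in sgIGF2BP3, with 2181 and 2319 of all genes called. SELENOH and TXNRD2 had the fewest counts and the widest intervals.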
